A study of Mus musculus with 4 samples.

Results

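The genes described here belong to the tumor necrosis factor (TNF) superfamily and the NF-kappa-B pathway behind it, measured in mouse leukemic cells that carried the MLL-AF9 fusion gene. Members were the probe sets whose single gene symbol in the platform annotation began with Tnf or Nfkb, or named Traf1 to Traf7, Rel, Rela, Relb, Tnip1 to Tnip3, Ripk1 to Ripk4, Ikbkb, Ikbke or Ikbkg. The rule found 109 probe sets of 58 genes, among 34945 probe sets of 18193 genes with a single symbol. It found no probe set for some of the names it allows, among them Nfkb1, Traf3, Ripk1, Ripk2 and Tnip3, and those genes are not analysed here.

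The leukemic cells were isolated from marrow of transplanted C57BL/6 mice, and total RNA of 4 samples was hybridised to an Affymetrix array each. Both groups were transformed with MLL-AF9. In the wild-type group (2 samples) the transplanted cells are labelled wild type and the recipients as repopulated with wild-type marrow. In the group called Ezh2 KO here (2 samples) the genotype entry names a knockout of Ezh2, the methyltransferase subunit of Polycomb repressive complex PRC2, while another entry says that recipients received marrow cells without Ink4a and Arf. These entries differ, and the labels do not settle whether both hold for the same cells. If both do, loss of Ezh2 and loss of Ink4a and Arf cannot be told apart here. The group is named after the genotype entry, and the knockout below means this group. The labels give neither the age of the mice, nor the way in which Ezh2 was removed, nor whether a group's samples had separate origins (mice or leukemias). P-values therefore cover no more than the sample-to-sample spread seen here, and that spread may be technical.

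Ligands of the TNF superfamily are made as membrane proteins, many of which are also shed. They bind receptors, many of which recruit TRAF adaptors, and those with a death domain can also start caspase signalling. TRAF and RIP proteins activate the IKK kinases, which mark the inhibitory IkappaB proteins for destruction and so release NF-kappa-B dimers to the nucleus. NF-kappa-B induces several of its own inhibitors, among them the IkappaB-alpha gene Nfkbia and the ubiquitin-editing enzyme gene Tnfaip3 (A20), which close a negative feedback loop. In myeloid cells the pathway is known for inflammatory gene induction and for survival signalling.

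Intensities are linear and were scaled by the authors to a common trimmed mean of 500 on each array. The deposited Ezh2 probe set read 5216 and 5315 in the wild type against 4989 and 4991 in the knockout (log2 change -0.08, SE 0.06, limma adjusted p = 0.484). The position of that probe set relative to the deleted part is not known here, so it checks nothing about the labels. Of 10 myeloid markers all were above the filter on dim genes, with Mpo between 32222 and 36399 on all 4 arrays, and their summed intensity was 131506 and 130317 in the wild type and 138427 and 123914 in the knockout. Within that list Itgam rose 1.67-fold (adjusted p = 0.000456), Ctsg fell 1.19-fold (adjusted p = 0.0363), and the other 8 did not pass. Of the NK cell markers 0 of 5 were above the filter, of the T cell markers 2 of 6 and of the erythroid markers 3 of 6, where some markers had no probe set with a single symbol, and no measured marker was listed at 0. Megakaryocyte markers were above it in 4 of 5 cases, stromal and endothelial markers in 5 of 6 and dendritic cell markers in 3 of 5, and none of these passed. The summed megakaryocyte intensity was 403 and 380 in the wild type and 610 and 524 in the knockout, and its part in the results below was not tested. The 3-prime to 5-prime ratio of the actin control ranged from 1.21 to 1.26 over the arrays. With so few arrays, their number limits how precise any value is.

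The promoters of several members hold matches to the NF-kappa-B consensus. The promoters of 4 genes are shown because the results below turn on them. Tnfaip3 and Tnip1 are feedback inhibitors that rose in the knockout, and Nfkbia is the classical feedback inhibitor that did not pass the test. Tnfrsf1b, whose promoter held no match, is the receptor gene with the smallest p-value among the members. Each sequence is the 250 bases before the RefSeq gene start on the strand of the gene, from assembly GRCm38.p6. Capitals mark matches to the 10-base NF-kappa-B consensus on either strand. The consensus searched was GGGRNWYYCC, where R is A or G, W is A or T, Y is C or T and N is any base.
Tnfaip3, chr10:19015411-19015660, minus strand: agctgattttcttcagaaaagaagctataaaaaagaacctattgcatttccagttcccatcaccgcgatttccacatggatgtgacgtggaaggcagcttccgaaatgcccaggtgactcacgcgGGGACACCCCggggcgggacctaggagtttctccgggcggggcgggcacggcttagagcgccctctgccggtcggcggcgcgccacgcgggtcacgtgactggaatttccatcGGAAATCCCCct
Tnip1, chr11:54962941-54963190, minus strand: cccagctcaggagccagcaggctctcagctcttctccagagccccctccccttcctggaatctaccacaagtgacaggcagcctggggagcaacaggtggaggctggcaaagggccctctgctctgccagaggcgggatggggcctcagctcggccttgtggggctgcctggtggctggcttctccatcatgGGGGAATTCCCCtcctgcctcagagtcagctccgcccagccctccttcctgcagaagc
Nfkbia, chr12:55492648-55492897, minus strand: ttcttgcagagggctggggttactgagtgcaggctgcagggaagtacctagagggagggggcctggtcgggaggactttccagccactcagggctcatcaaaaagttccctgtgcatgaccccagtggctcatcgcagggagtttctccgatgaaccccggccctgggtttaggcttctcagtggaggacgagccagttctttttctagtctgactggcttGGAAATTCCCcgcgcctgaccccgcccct
Tnfrsf1b, chr4:145246871-145247120, minus strand: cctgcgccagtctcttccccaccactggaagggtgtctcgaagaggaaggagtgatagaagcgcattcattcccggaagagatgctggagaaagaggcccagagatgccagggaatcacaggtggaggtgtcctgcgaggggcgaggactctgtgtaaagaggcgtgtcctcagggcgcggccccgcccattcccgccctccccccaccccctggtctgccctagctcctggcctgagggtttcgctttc

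The Tnfaip3 window held 2 matches, starting 125 and 12 bases before the gene start. In Tnip1 a palindromic stretch held 4 overlapping matches over both strands, the first starting 58 bases before the gene start. Nfkbia held 1 match, 29 bases before the start, and Tnfrsf1b held 0. Of the 47 members with a RefSeq window 10 (21.3%) had a match in at least 1 of their windows, against 4.46% of all 27025 genes with a window. Per window the shares were 20% for members and 3.90% for all 32851 windows. The members with a match were Nfkb2, Nfkbia, Nfkbid, Nfkbie, Rel, Tnfaip3, Tnfaip8l1, Tnfrsf8, Tnfrsf9 and Tnip1. Of these 10 genes Tnfaip3 and Tnip1 changed and the other 8 did not pass the test, where 11.6% of all genes tested were called. All 5 changed members had a window, and the windows of Tnfrsf1b, Tnfrsf18 and Ikbke held no match. A link between matches and changes was not tested. A match is a description of the letters and does not show that the factor binds there.

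The comparison of the groups asks which members of this pathway differ between wild-type and Ezh2 KO leukemic cells. Most did not pass the test: 52 of the 58 genes were bright enough to test, 5 were higher in the knockout and 0 were lower. With 2 arrays a group, not passing does not show that a gene is unchanged. The 5 that rose were the receptors Tnfrsf1b and Tnfrsf18, the kinase Ikbke, and the inhibitors of NF-kappa-B signalling Tnfaip3 and Tnip1, each by 1.26-fold to 1.52-fold. Genes were tested with limma on log2(intensity + 16) over all 13916 genes above the filter, an intensity of about 19.96, and were called changed at a Benjamini-Hochberg adjusted p under 0.05. Folds and log2 changes are on that scale, which understates the change of dim genes.

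Over all genes tested 5.55% were higher and 6.01% lower, 11.6% in either direction, so the 9.62% of tested members called is near the background. At an unadjusted limma p under 0.05 there were 10 of 52 members (19.2%), of which 3 were lower, beside 24.9% of all genes, with 13.1% lower. Median centring of the arrays moved the balance over all genes from 772 higher and 836 lower to 402 and 1014, and left 3 of the 5 member calls. The members' median log2 change was -0.03, beside 0.01 for all genes, and 24 members had a positive and 28 a negative change. Wild-type and knockout arrays did not overlap in 23 of 52 members (44.2%), beside 52.5% of all genes. In bulk samples such as these, fewer cells that express a gene and less of its RNA per cell cannot be told apart.

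**Figure D1:**
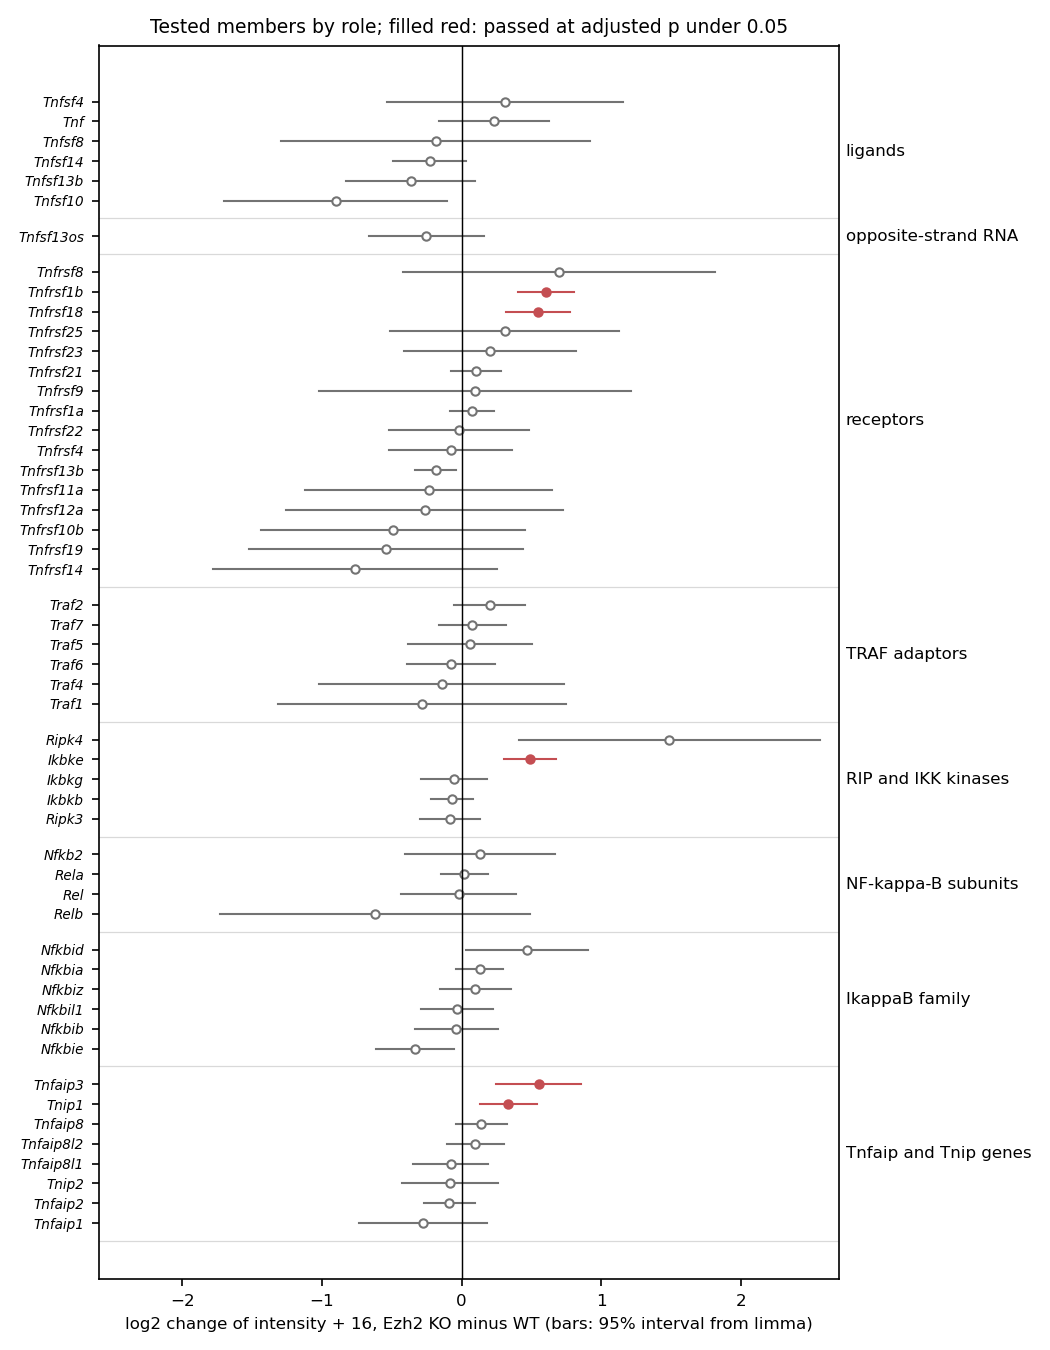
Log2 change of intensity plus 16, Ezh2 KO minus WT, of the 52 tested members by role, with 95% intervals from limma (n = 2 arrays a group). Filled red points passed at an adjusted p under 0.05; the 5 of them lie to the right of 0, and dim genes such as Relb and Ripk4 have wide intervals.

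Among the ligands 0 of 6 tested genes passed the limma test. At an unadjusted limma p under 0.05 there was 1, a threshold that 24.9% of all genes reached. The median log2 change of the ligands was -0.21. Tnf itself, the founding cytokine of the family, read 173 and 192 in the wild type and 227 and 207 in the knockout. The knockout arrays were both above the wild-type arrays, but the log2 change of 0.23 had a 95% interval from -0.16 to 0.62 (adjusted p = 0.478). Tnfsf10 encodes TRAIL, which triggers apoptosis through death receptors. It read 66.4 and 87.8 in the wild type and 42.3 and 26.0 in the knockout, with both knockout arrays below both wild-type arrays (log2 change -0.90, interval -1.70 to -0.10, adjusted p = 0.147). A further probe set of Tnfsf10 read 53.2 and 98.6 against 9.54 and 29.2 without passing (adjusted p = 0.0933 with every probe set fitted). That probe set passed the filter only through its wild-type arrays, so a fall was required for it to be tested. The gene's other probe set overlapped between the groups.

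Tnfsf13b encodes BAFF, a survival factor of B cells that myeloid cells secrete. It read 235 and 229 in the wild type and 145 and 215 in the knockout. The lower mean of the knockout comes mostly from its replicate 1, and the change did not pass (log2 change -0.36, adjusted p = 0.321). Averaging its 3 probe sets turned the direction (0.098). For Tnfsf14 (LIGHT), a ligand of lymphotoxin and herpesvirus entry receptors, the readings were 463 and 455 against 380 and 399, a log2 change of -0.23 (interval -0.49 to 0.03, adjusted p = 0.271). Tnfsf4 and Tnfsf8, costimulatory ligands of T cells, lay between 16.6 and 86.7 on all arrays and overlapped. Tnfsf9 and Tnfsf11 (RANKL, the osteoclast factor) were below the filter, between 1.32 and 35.3. The probe set named Tnfsf13os, an opposite-strand transcript of Tnfsf13, had a log2 change of -0.25 (adjusted p = 0.452), and its second, dimmer probe set ran the other way at 0.94 (adjusted p = 0.189 with every probe set fitted as its own row).

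Receptors held 2 of the 5 changed genes, or 12.5% of the 16 tested receptors, near the 11.6% of all genes called. Tnfrsf1b encodes TNF receptor 2, which has no death domain and signals through TRAF adaptors. It read 769 and 729 in the wild type and 1191 and 1106 in the knockout, so both knockout arrays stood above both wild-type arrays with a wide gap. This is a rise of 1.52-fold from 749 ± 28.8 to 1148 ± 60.6 (mean ± SD, n = 2 arrays, as below), with a log2 change of 0.61 (SE 0.09, adjusted p = 0.00225). The call rests on the brighter of its 2 probe sets. The other read 120 and 55.2 in the wild type and 120 and 51.2 in the knockout, and averaging both gave a log2 change of 0.28 (adjusted p = 0.558).

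Tnfrsf1a encodes TNF receptor 1, which carries the death domain. It read 2474 and 2479 in the wild type against 2489 and 2733, a log2 change of 0.07 with a 95% interval from -0.09 to 0.23 (adjusted p = 0.591). That interval lies below the interval of Tnfrsf1b, 0.41 to 0.80. The difference between the 2 receptors was not itself tested.

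Tnfrsf18 encodes GITR, a receptor best known from regulatory T cells. Its readings were 601 and 693 in the wild type and 918 and 978 in the knockout, again without overlap. It rose 1.46-fold from 647 ± 65.2 to 948 ± 42.4 (log2 change 0.54, SE 0.10, adjusted p = 0.00808). Without wild-type replicate 1, the lower array, the log2 change was 0.44 and the adjusted p 0.0543. The T cell marker Cd3e read 25.5 and 10.4 against 52.8 and 9.90, the summed intensity of the T cell markers was 187 and 124 in the wild type against 247 and 103 in the knockout, and Cd3d, Cd3g and Cd4 were below the filter.

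Tnfrsf18 has Tnfrsf4, the T cell receptor OX40, as its neighbouring protein-coding gene on chromosome 4, and Tnfrsf1b has Tnfrsf8 (CD30) as its neighbour on the same chromosome. Tnfrsf4 read 232 and 174 against 200 and 180, with overlapping groups and a log2 change of -0.08 (interval -0.52 to 0.36). Tnfrsf8 was dim, at 7.75 and 37.1 against 36.5 and 47.4. Its log2 change of 0.70 had an interval from -0.42 to 1.82. Tnfrsf8 passed the filter only through its knockout arrays, so a rise was required for it to be tested.

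Tnfrsf13b encodes TACI, a receptor of BAFF and APRIL known mainly from B cells. It read 3510 and 3302 in the wild type and 2991 and 2987 in the knockout. The groups did not overlap and the interval of the log2 change, -0.33 to -0.04, lay below 0, but the change of -0.19 did not pass over all genes (adjusted p = 0.101). The other BAFF receptors of B cells, Tnfrsf13c and Tnfrsf17 (BCMA), were below the filter. Among B cell markers Cd79a was below the filter and the other tested ones did not pass, with log2 changes of 0.10 for Cd79b, 0.45 for Ms4a1 and 0.51 for Pax5. The immunoglobulin gene Ighm ran the other way and fell 1.45-fold, from 3681 ± 381 to 2522 ± 155 (adjusted p = 0.00311). The part of B cells in the Tnfrsf13b signal was not tested.

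The remaining receptors did not pass. Tnfrsf21, a death-domain receptor, read 1031 and 1008 against 1102 and 1089, a small difference without overlap (log2 change 0.10, adjusted p = 0.494), and its second probe set had 0.11. The TRAIL receptor Tnfrsf10b read 35.5 and 37.3 against 21.1 and 21.6. Those levels lie close to the filter intensity (log2 change -0.49, adjusted p = 0.541), and the gene's second probe set was below the filter. The neighbouring decoy receptor genes Tnfrsf22 and Tnfrsf23 on chromosome 7 had log2 changes of -0.02 and 0.20. On the probe sets that stand for them, Tnfrsf9, Tnfrsf11a (RANK), Tnfrsf12a, Tnfrsf14, Tnfrsf19 and Tnfrsf25 read between 11.6 and 77.8 on all arrays. Their changes lay between -0.76 and 0.31 with intervals that include 0. The lowest, -0.76, was that of Tnfrsf14, which passed the filter only through its wild-type arrays, so that a fall was required. A second probe set of Tnfrsf12a ran the other way, at 16.1 and 5.46 against 25.9 and 45.5 (log2 change 0.95). It passed the filter only through its knockout arrays, so a rise was required. The second probe set of Tnfrsf11a had -0.57, and neither passed with every probe set fitted as its own row. Tnfrsf11b, the RANKL decoy osteoprotegerin, was below the filter.

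**Figure D2:**
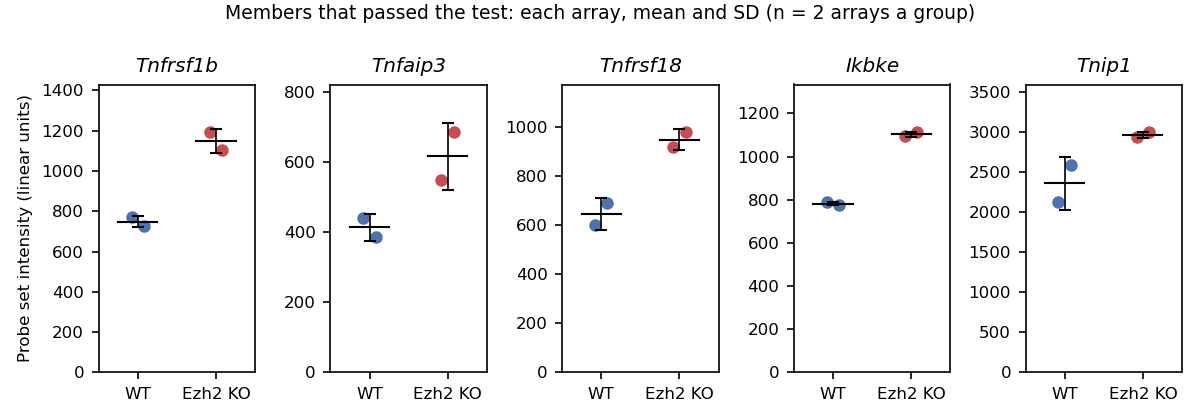
Probe set intensity (linear axis from 0) of the 5 members that passed the test, with a point for each array, the mean as a line and the SD as a bar (n = 2 arrays a group). In each panel both Ezh2 KO arrays lie above both WT arrays, for Tnip1 at 2935 and 2991 against 2123 and 2592.

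None of the 6 TRAF adaptor genes among the members passed (limma, 0 also at an unadjusted p under 0.05, which 24.9% of all genes reached). These ubiquitin ligases and scaffolds link receptors to the kinases. Their log2 changes ran from -0.29 to 0.20. Traf2, the main adaptor of both TNF receptors, read 553 and 593 in the wild type and 713 and 611 in the knockout, which stood apart only narrowly (log2 change 0.20, interval -0.05 to 0.45, adjusted p = 0.317). Traf6, the adaptor of Toll-like and interleukin 1 receptors, read 469 and 406 against 455 and 375, and none of its further probe sets passed either, 1 of them being below the filter. Traf7 read 769 and 853 against 788 and 926, and Traf5 230 and 184 against 187 and 248, both with overlap. Traf1 and Traf4 were dim, between 15.2 and 50.5.

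Among the kinases Ikbke stood out. It encodes IKK-epsilon, a relative of the canonical IKK subunits that acts beside Tbk1 in the induction of interferon genes. It read 788 and 776 in the wild type and 1096 and 1112 in the knockout, pairs that were tight and far apart. The rise was 1.40-fold, from 782 ± 8.0 to 1104 ± 11.3 (log2 change 0.49, SE 0.08, adjusted p = 0.00512). Ikbke has 1 probe set. Its call held in 14 of 14 alternatives other than a single prior variance, where no gene of the table passed.

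The tested subunits of the canonical complex did not pass. Ikbkb, the kinase IKK-beta, read 2288 and 2397 against 2219 and 2245, a log2 change of -0.07 with an interval from -0.22 to 0.08 (adjusted p = 0.601). Its dimmer probe sets above the filter had changes of 0.11, -0.49 and 0.87, and none passed with every probe set fitted as its own row. The last of them read 94.8 and 102 against 262 and 140 (adjusted p = 0.0978). Ikbkg, the regulatory subunit NEMO, read 1032 and 888 against 982 and 860 (log2 change -0.06, adjusted p = 0.803). Tbk1, not a member by the rule, had a log2 change of 0.06 (adjusted p = 0.652). Ripk3, the kinase of necroptosis, read 1279 and 1121 against 1194 and 1064 and overlapped (log2 change -0.09, adjusted p = 0.656).

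Ripk4, a kinase of epidermal differentiation, had the highest log2 change of any member and is named after its values were seen. It read 7.17 and 4.25 in the wild type and 51.7 and 38.3 in the knockout. The change of 1.49 did not pass (SE 0.48, adjusted p = 0.0795). The gene passed the filter only through its knockout arrays, so a difference of this sign was required for it to be tested. Its second probe set was below the filter, at 1.87 and 3.69 against 24.3 and 4.63.

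The 4 NF-kappa-B subunit genes among the members were flat or dim, and 0 passed the limma test. At an unadjusted limma p under 0.05 there were also 0, a threshold that 24.9% of all genes reached. Nfkb1, a further subunit gene, had no member probe set, so nothing is said of it. Rela encodes p65, the transactivating subunit of the canonical dimer. It read 1526 and 1626 in the wild type and 1578 and 1617 in the knockout, fully overlapping, with a log2 change of 0.02 and a 95% interval from -0.15 to 0.19. Rel read 209 and 179 against 202 and 179 (log2 change -0.02). Nfkb2, whose product is processed in the non-canonical pathway, read 107 and 150 against 157 and 126, and its 2 probe sets had opposite signs (0.13 and -0.48). Relb, the partner of that product, read 36.3 and 24.8 against 8.02 and 21.6, around the filter intensity (log2 change -0.62, interval -1.73 to 0.49). Relb passed the filter only through its wild-type arrays, so a difference of this sign was required for it to be tested.

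None of the 6 IkappaB family genes passed (limma, 2 at an unadjusted p under 0.05, which 24.9% of all genes reached). Nfkbia, the promoter of which is shown above, read 6950 and 6122 in the wild type and 7329 and 6934 in the knockout. The groups overlapped, and the log2 change of 0.13 had an interval from -0.04 to 0.29 (adjusted p = 0.332). Its 5 probe sets ran the same way, with log2 changes between 0.08 and 0.15. Nfkbid, a nuclear regulator of the family, read 458 and 280 in the wild type and 503 and 500 in the knockout. Its change moved with the wild-type array left out: 0.47 over all arrays (adjusted p = 0.167), 0.13 without wild-type replicate 2, and 0.81 (adjusted p = 0.0156) without wild-type replicate 1.

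Nfkbie (IkappaB-epsilon) ran the other way, at 481 and 519 against 365 and 420, without overlap (log2 change -0.34, interval -0.62 to -0.06, adjusted p = 0.120). Its second, dimmer probe set overlapped, at 164 and 90.2 against 134 and 104 (log2 change -0.05). Averaging the probe sets gave -0.19 (adjusted p = 0.564). Nfkbib read 517 and 440 against 503 and 428. Nfkbil1, a relative in the MHC region, read 549 and 565 against 504 and 587. Both overlapped, with changes of -0.04 and -0.03. Nfkbiz, a nuclear coactivator, read 574 and 690 against 656 and 695 on its brightest probe set (log2 change 0.10, adjusted p = 0.670).

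Of the 8 tested Tnfaip and Tnip genes 2 rose, Tnfaip3 and Tnip1. That is 25%, beside 11.6% of all genes called, a difference that was not tested in so small a group. Tnfaip3 encodes A20, which removes activating ubiquitin chains from RIP and TRAF proteins. It read 442 and 387 in the wild type and 550 and 685 in the knockout, without overlap but with a spread in the knockout. It rose 1.46-fold, from 415 ± 38.5 to 617 ± 95.4 (log2 change 0.55, SE 0.13, adjusted p = 0.0283). The second, dimmer probe set read 61.5 and 54.9 against 89.7 and 93.8, a log2 change of 0.54 that did not pass alone (adjusted p = 0.300). The call was lost without knockout replicate 2 (0.40, adjusted p = 0.134), without wild-type replicate 2 (0.46, 0.129) or 1 (0.64, 0.0546), and with median centring (0.45, 0.0623).

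Tnip1 encodes ABIN1, which binds A20 and guides it to its substrates. Its readings were 2123 and 2592 in the wild type and 2935 and 2991 in the knockout. The rise was 1.26-fold, from 2358 ± 331 to 2963 ± 39.9 (log2 change 0.33, SE 0.09, adjusted p = 0.0442). Without wild-type replicate 1, the lower array, the change was 0.19 (adjusted p = 0.211), and with median centring 0.24 (adjusted p = 0.273). Its relative Tnip2 read 287 and 259 against 271 and 244 and overlapped (log2 change -0.08).

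The other genes named after induction by TNF did not pass. Tnfaip8, a regulator of cell death, read 5685 and 4913 against 6080 and 5580 (log2 change 0.14, adjusted p = 0.333), and its relatives Tnfaip8l1 and Tnfaip8l2 had -0.08 and 0.10. Tnfaip2 had -0.09 and Tnfaip1 -0.28, all 3 probe sets of the latter being negative. Tnfaip6, a hyaluronan-binding protein, was below the filter at 12.1 and 10.7 against 36.8 and 21.6.

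Where a gene had several probe sets, they did not always run together. Of the 109 member probe sets 92 were above the filter, and when every probe set of the table was fitted as its own row (25576, of which 7.92% passed and 3.89% were lower) 6 member probe sets passed, 4 higher and 2 lower. Of 23 genes with several probe sets above the filter, 13 had a single sign and 10 had both. The 2 lower probe sets belonged to genes whose brightest probe set did not pass. For Ikbkg, 1 probe set read 234 and 248 in the wild type and 101 and 98.8 in the knockout, a fall of 2.22-fold (log2 change -1.15, SE 0.19, adjusted p = 0.00645). A sister probe set, which the annotation assigns to the same source sequence, read 623 and 610 against 680 and 632 (log2 change 0.09, adjusted p = 0.698), and the other 4 had changes between -0.25 and 0.07. For Nfkbiz, 1 probe set read 562 and 499 against 359 and 361 (log2 change -0.54, adjusted p = 0.0282), whereas the other 2 did not pass. The positions of the probes within these genes were not analysed here.

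**Figure D3:**
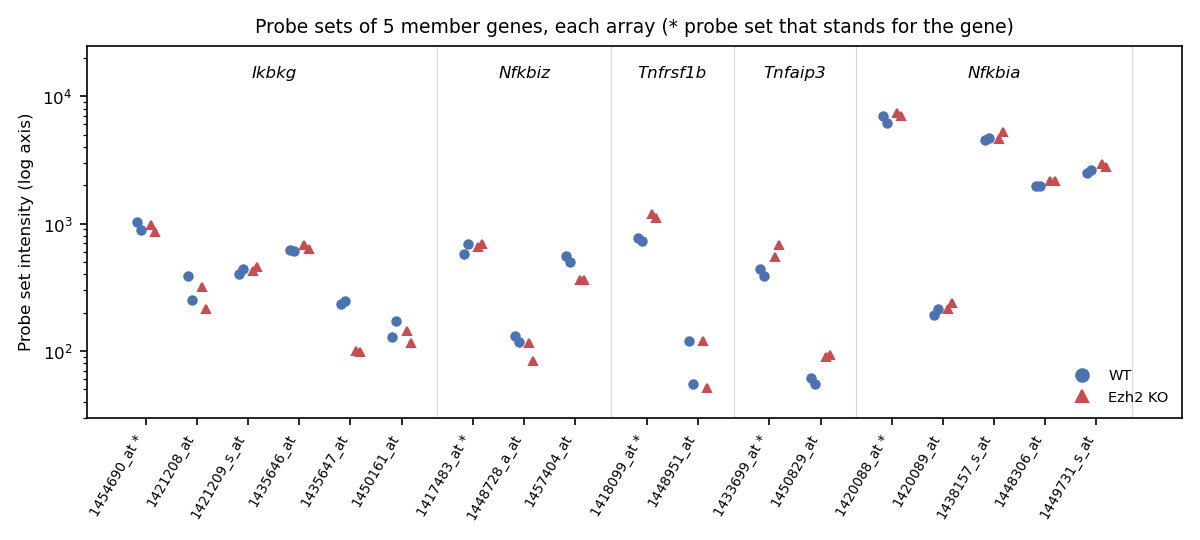
Intensity on a log axis of every probe set of 5 member genes on each array (circles WT, triangles Ezh2 KO; an asterisk marks the probe set that stands for the gene). One probe set of Ikbkg is lower in the knockout, at 234 and 248 against 101 and 98.8, and another lies slightly higher, at 623 and 610 against 680 and 632.

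Genes of the same pathway under other names were taken from 3 further lists. Of 14 superfamily genes with other symbols 9 were tested and 1 passed, or 11.1% beside 11.6% of all genes. The death receptor Fas rose 1.76-fold, from 285 and 164 to 391 and 398 (adjusted p = 0.0410). Without wild-type replicate 2, the lower array, its log2 change was 0.45 in place of 0.82 (adjusted p = 0.131), and quantile normalization, no filter and averaged probe sets also ended the call. The lymphotoxin beta receptor Ltbr had -0.01, and Cd40 and Cd27, at 18.3 to 69.7, had 0.69 and 0.66 without passing. Cd27 passed the filter only through its knockout arrays, so a rise was required for it to be tested. Fasl, Cd70, Lta, Edar and Eda2r were below the filter. The median of this list was 0.52 and rests mostly on dim genes.

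Of 30 pathway partners 26 were tested, 2 rose and 1 fell, with a median log2 change of 0.04. The share called, 11.5%, is near the 11.6% of all genes. Tank, an adaptor that binds TRAF proteins and both Tbk1 and IKK-epsilon, rose 1.28-fold, from 4084 and 4181 to 5103 and 5459 (adjusted p = 0.00704). Cflar, the caspase 8 inhibitor c-FLIP, rose 1.22-fold and barely passed (1512 and 1676 against 1872 and 2024, adjusted p = 0.0496). Bcl3, an IkappaB-like coactivator of NF-kappa-B homodimers, fell 1.71-fold, from 342 and 294 to 147 and 216 (adjusted p = 0.0352). The calls of Tank (0.255) and Cflar (0.19) were lost with median centring. Cflar also lost its call without wild-type replicate 1 (0.21), wild-type replicate 2 (0.36) or knockout replicate 2 (0.23). Bcl3 lost its call without wild-type replicate 1 (-0.67), wild-type replicate 2 (-0.88) or knockout replicate 1 (-0.52). Averaging its probe sets reduced Tank to 0.17 (adjusted p = 0.249). The death-signalling genes Tradd, Fadd and Casp8 did not pass, at -0.23, -0.14 and -0.16, nor did the deubiquitinase Cyld at 0.23 (adjusted p = 0.0683).

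Common NF-kappa-B target genes moved in both directions: of 25 listed 17 were tested, 2 rose and 3 fell, with a median log2 change of -0.03. The share called was 29.4%, beside 11.6% of all genes, a difference that was not tested. The chemokine gene Ccl3 rose 1.69-fold, from 2293 and 2397 to 3886 and 4056 (adjusted p = 9.99e-05), and the early response gene Ier3 1.32-fold (adjusted p = 0.0154). Vcam1, an adhesion receptor, fell 3.47-fold from 4817 and 5769 to 1440 and 1578 (adjusted p = 4.30e-06). The mitochondrial superoxide dismutase gene Sod2 fell 1.41-fold (adjusted p = 0.00167) and the stress gene Gadd45b 1.44-fold (adjusted p = 0.00354). Ccl3, Vcam1 and Gadd45b passed in 14 of 14 alternatives other than the single prior variance. Averaging its probe sets left Sod2 at -0.26 (adjusted p = 0.113), and Ier3 lost its call without wild-type replicate 2 (0.33) and with median centring (0.31). The cytokine genes Il1b and Cxcl2 had 0.34 and 0.30 and did not pass, and Il6, Csf2 and Il12b were below the filter. Vcam1 is also a macrophage marker. Among the other macrophage markers Csf1r rose 1.40-fold (adjusted p = 0.00360), Adgre1, Mrc1 and C1qb did not pass at -0.14, 0.66 and 0.55, and C1qa was below the filter. C1qb passed the filter only through its knockout arrays, so a rise was required for it to be tested. The summed intensity of the macrophage markers was 9495 and 10455 in the wild type against 6828 and 7808 in the knockout, and without Vcam1 it was 4678 and 4686 against 5387 and 6230. Their part in these results was not tested.

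**Figure D4:**
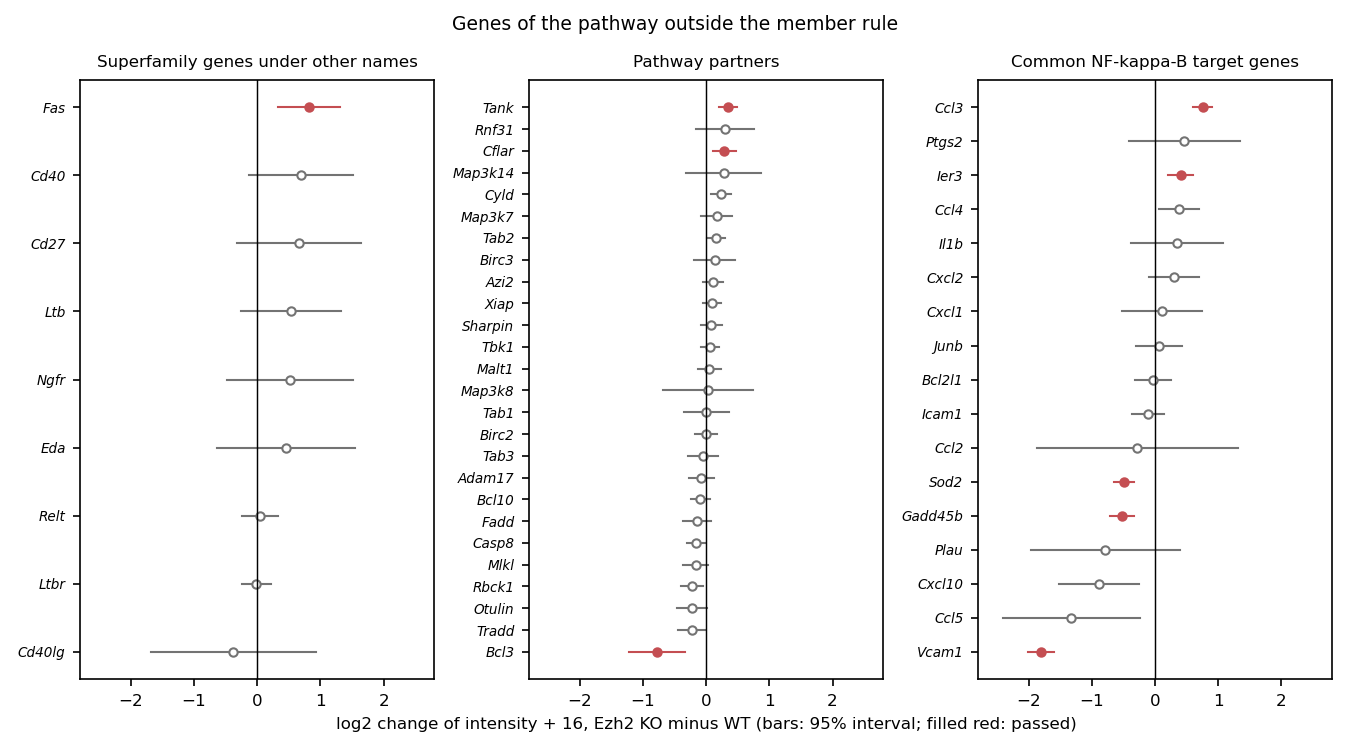
Log2 change of intensity plus 16, Ezh2 KO minus WT, with 95% intervals from limma, for tested genes of the pathway that the member rule does not name. Filled red points passed at an adjusted p under 0.05: Fas in the left panel, Tank, Cflar and Bcl3 in the middle, and in the right panel Ccl3 and Ier3 above 0 with Sod2, Gadd45b and Vcam1 below.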

How the data were processed

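Affymetrix probe set intensities of 4 arrays (2 wild type, 2 Ezh2 KO, from the sample titles) were used as deposited. The submitters' processing notes name Affymetrix Expression Console as the tool; its version and method of summarising probes are not given in the sources used here. From the values, the authors' scaling set each array's mean, trimmed by 2% at each end, to 500. Symbols came from the platform annotation, whose gene identifiers matched RefSeq GRCm38.p6 for 34741 of 34945 probe sets. The probe set with the highest mean log2 value stood for each gene, and genes above the 30th percentile of probe sets were tested with lmFit and eBayes (prior variance following intensity) in limma 3.58.1, R 4.3.3, after a trial on simulated data. Detection calls were not used. Deviations of same-numbered arrays from their group means had a correlation of 0.041 across genes, which gave no ground to pair these arrays. Named were all changed members and, per role, the member of highest mean and, where none changed, those of largest change; of the wider lists, the changed genes. Genes outside that rule are given by values. Alternatives were other normalizations, filters, pseudocounts, probe set rules and priors, a replicate block and leaving out each array. The members and lists were chosen with earlier results of these data known. Figures were drawn with matplotlib 3.10.9 in Python 3.11.15.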

Additional observations from a re-analysis of the deposited data

How the results depend on the processing

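Of the 5 members that rose, all passed with quantile normalization, a filter at the 50th percentile, a pseudocount of 64, a robust prior and the replicate block, and Ikbke, Tnfrsf1b, Tnfrsf18 and Tnfaip3 also with a pseudocount of 1 and with every probe set as its own row. The count of higher members was 3 with median centring, 3 without a filter, 2 with averaged probe sets and 0 with a single prior variance, a setting in which 0 genes of the whole table passed. Leaving out an array gave 3 to 5 higher members and 0 lower; without wild-type replicate 1 Ikbke and Tnfrsf1b kept their calls and Nfkbid gained one. The replicate block gave 1 lower member, Tnfrsf13b (adjusted p = 0.0391), and 7 higher ones; same-numbered arrays share only a number here, and the block raised the calls over all genes from 1608 to 2719. Over all genes 958 passed with averaged probe sets, and leaving out wild-type replicate 1 or 2 gave 875 or 988.

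Changes that did not pass turned sign in some settings, the cause of which was not tested. With averaged probe sets these were Nfkb2 (-0.17), Nfkbiz (-0.25), Tnfsf13b (0.098), Tnfsf13os (0.34) and Traf1 (0.099), and with median centring Rela (-0.077) and Traf7 (-0.022). Without an array the range was -0.16 to 0.048 for Ikbkg, -0.082 to 0.35 for Nfkb2, -0.031 to 0.23 for Nfkbiz, -0.026 to 0.065 for Rela, -0.59 to 0.014 for Traf1 and -0.040 to 0.19 for Traf7. The members' median log2 change lay between -0.12 and 0.07 over all alternatives. Where an array is left out, the lone sample of its group is assumed to vary like the other group. Genes near the filter intensity of 19.96 had wide intervals, which limits what can be said of the dim ligands and receptors.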
